A study of Mus musculus with 20 samples.

Results

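Ribosome biogenesis genes are described here as 33 genes for nucleolar factors and subunits of RNA polymerase I, taken by their symbols from a list and kept where the messenger RNA reached 1 CPM (its counts after all libraries are scaled to the same total) in at least 3 libraries. All 33 symbols were in the count tables and all 33 passed. They stood among 41115 genes in the tables, of which 12139 passed the same filter in 20 libraries and 12042 in the 18 libraries after 0 min.

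The study sequenced polyadenylated RNA of mouse cells labelled spleen at 10 times, namely 0, 15 and 30 min and 1, 2, 3, 6, 12, 24 and 48 h. In the stimulated arm the cells carried the treatment LPS, IL4 and TGFb, that is bacterial lipopolysaccharide, which signals through Toll-like receptor 4, and the cytokines interleukin 4 and transforming growth factor beta. The untreated arm carried no treatment. Each arm had 1 library per time, 10 per arm, and per the design text each arm came from 1 mouse. The 0 min library of the stimulated arm carries the treatment label too. The sources used here do not give strain, sex, age, cell purification or the way the cocktail was applied. Neighbouring times were grouped into 3 phases, of which the early one held 15 min, 30 min and 1 h, the middle one ran from 2 over 3 to 6 h, and the late one held the last 3 times, so 3 libraries per arm and phase stood in for replicates. The p-values below therefore rest on spread between times, not between animals. For stimulated against untreated cells this is the spread of their ratio between times, and within an arm it is the spread between the times of a phase. A difference between the arms cannot be told apart from a difference between the 2 mice.

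Ribosomes are built in the nucleolus. RNA polymerase I transcribes a long ribosomal RNA precursor, small nucleolar ribonucleoproteins (snoRNPs) guide its chemical modification and early cleavage, and successive sets of assembly factors turn it into the small and the large ribosomal subunit. Resting lymphocytes make few ribosomes, and mitogens such as LPS are known to enlarge the nucleolus and raise ribosome production in B cells as they grow before division.

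Totals ran from 36873155 to 60918651 counts per library, and a floor of 3 counts corresponded to 0.0492 to 0.0814 CPM, covering counting error only. No pair of libraries was identical, since at most 0.692% of genes had equal counts in any of the 190 pairs. The label spleen was checked against markers. The B cell genes Cd79a, Ms4a1 and Pax5 were detected in every library, with Cd79a at 200.8 to 364 CPM in stimulated and 217 to 345 CPM in untreated libraries by library totals. Among defining markers of other spleen cells, S100a8 had 0 counts in all 20 libraries, Lyz2 had 0 to 2 counts in stimulated and 0 to 4 in untreated libraries, and Cd3e had 0 to 8 counts in stimulated and 0 to 14 in untreated libraries. Other markers of those lists were present at low level: the 9 T cell markers in the tables summed to 43.5 to 81.4 CPM in stimulated and 51.2 to 69.3 CPM in untreated libraries, the 9 macrophage and monocyte markers to 38.0 to 99.0 CPM in stimulated and 24.2 to 66.7 CPM in untreated libraries, and the 5 dendritic cell markers to 30.2 to 66.5 CPM in stimulated and 17.97 to 31.6 CPM in untreated ones. The 10 B cell markers summed to 1380 to 2610 CPM in stimulated and 1970 to 2660 CPM in untreated libraries. Lane and arm were entangled. Of the 4 sequencing lanes 1 carried stimulated and 1 carried untreated libraries alone, and each of the others had a single library of the other arm (untreated 2 h, stimulated 15 min). No time had its pair of libraries on 1 lane, so the arms could not be compared at the same time within a lane. Within an arm some times did share a lane, such as stimulated 30 min, 2, 3, 6 and 48 h, and untreated 30 min, 3, 6 and 48 h.

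These messenger RNAs took a larger share of counts at every later time than at 0 min, in both arms. Summed over the 33 genes, they took 1.51, 1.55, 1.61, 1.73, 2.06, 2.21, 2.31, 2.34, 2.19 and 1.72% of all counts from 0 min to 48 h in the stimulated arm. In the untreated arm the same share was 1.56, 1.67, 1.67, 1.75, 1.88, 1.95, 2.06, 2.14, 2.23 and 1.77%. By this share the stimulated arm was below the untreated arm up to 1 h and again at 24 and 48 h. From 2 h to 12 h it was above. After TMM scaling, as in the tests, stimulated sums were the higher ones at both 1 and 24 h. They were 17179.9 and 24446.9 CPM, versus untreated sums of 16976.1 and 24070.2 CPM. The order at the other times stayed the same. Npm1 and Ncl, described below, weighed most, with 4112 and 3294 of the 13928.5 CPM in the stimulated 0 min library. In bulk RNA, fewer cells of a type and less RNA per cell cannot be told apart, and a share of counts says nothing of the total RNA in a cell.

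**Figure D1:**
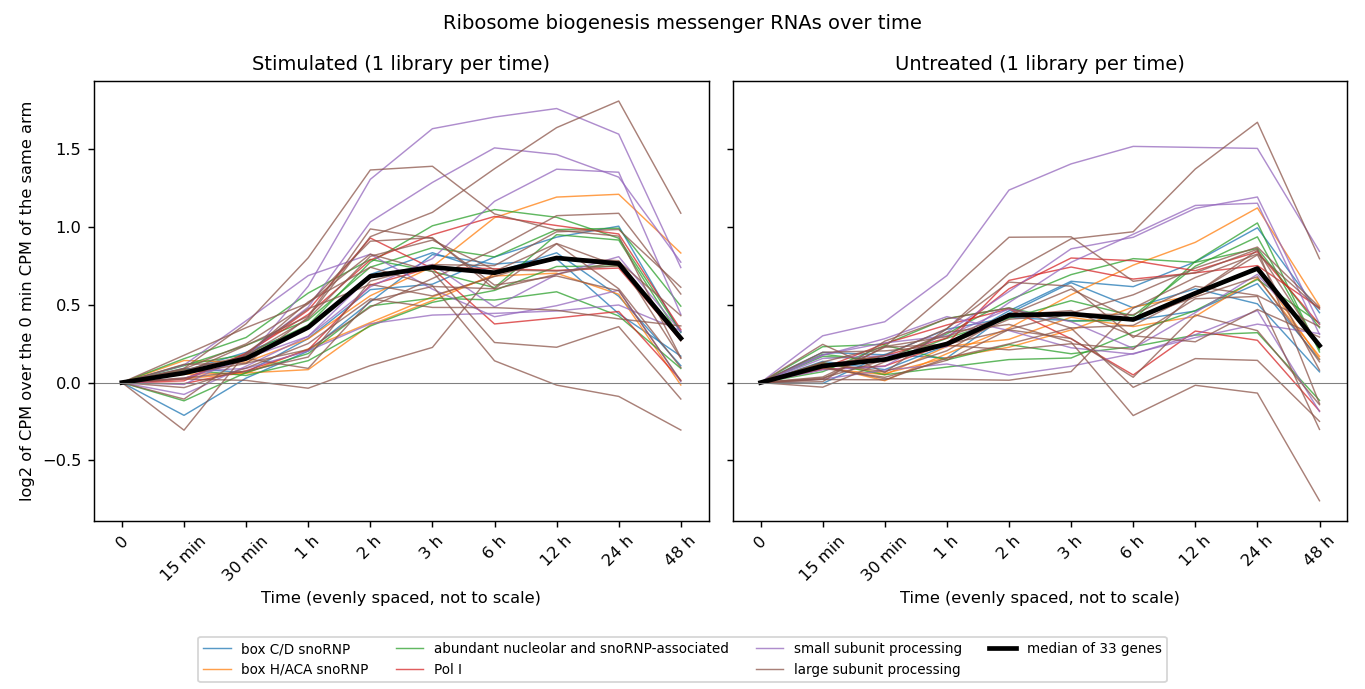
Each thin line is 1 of the 33 genes, coloured by role, as the log2 ratio of its CPM to the 0 min CPM of the same arm (y axis) against time, evenly spaced and not to scale (x axis), for the stimulated arm (left) and the untreated arm (right), with the median in black. The median is highest between 2 h and 24 h in both arms and drops at 48 h, where all 33 genes lie below their 24 h value in either arm.

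Per gene, the highest CPM of the course was 1.412 to 3.50 times the 0 min value in the stimulated arm (median 1.89) and 1.249 to 3.19 times in the untreated arm (median 1.66), with 1 library per point and no test. Bop1, of the large subunit complex described below, had the widest range in either arm. At 48 h all 33 genes lay below their 24 h CPM in both arms, with a median ratio of 48 h to 24 h of 0.717 in the stimulated and 0.703 in the untreated arm. Over all 12139 genes that median ratio was 0.993 in the stimulated and 0.994 in the untreated arm, and 51.1% and 51.0% of genes were lower at 48 h. Even so, 30 of the 33 genes in the stimulated arm and 25 of 33 in the untreated arm were still above their own 0 min value at 48 h. In each arm the 48 h library was on another lane than the 0 min and 24 h libraries. The changes to 48 h cannot be told apart from a lane difference, and their presence in both arms does not remove this limit.

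The time of the highest CPM differed between the arms for many of these genes. In the stimulated arm 6 genes were highest at 2 h and 6 at 3 h, then 3 at 6 h, with 9 each at 12 h and 24 h. In the untreated arm 4 genes peaked at 2 h, 2 at 3 h and 1 at 6 h, with 2 more at 12 h and the other 24 at 24 h. By 3 h, then, 12 genes in the stimulated and 6 in the untreated arm had reached their maximum. Some maxima were near ties between single libraries. At 3 h and 24 h Polr1a had 348.3 and 347.0 CPM in the stimulated and 356.6 and 358.9 CPM in the untreated arm. Stimulated Nop58 had 638.2 CPM at 3 h and 638.0 CPM at 12 h. Peak times were not tested, nor counted over all genes. Nop2, Polr1b, Ppan and Rrs1 were highest at 2 h in both arms.

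Compared per length, as mean CPM over the 20 libraries per kb of merged exons, the genes covered a wide range of levels. Npm1, for the nucleolar histone chaperone nucleophosmin, was the most abundant at 1926 CPM per kb, followed by Ncl, for the nucleolar RNA-binding protein nucleolin, at 484 CPM per kb. Mybbp1a, for a nucleolar Myb-binding protein, came next at 179 CPM per kb. At the low end stood Nle1, whose yeast counterpart acts in large subunit maturation, at 16.0 CPM per kb, and Wdr12, of the large subunit complex described below, at 12.7 CPM per kb. By the GENCODE vM21 annotation 8 members carry small nucleolar RNA genes within their bounds, 23 in all, among them Nop56 with 5 and Nop58 with 4. Such small RNAs are not polyadenylated, and the values here are those of the host messenger RNAs.

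The main question of the design was whether the cocktail changed these genes beyond the course of the untreated cells. In the middle phase the calls went in 1 direction only: 20 of the 33 were higher in stimulated libraries and 0 were lower (edgeR quasi-likelihood test, Benjamini-Hochberg adjusted p under 0.05), against 10.2% of all 12042 genes called higher and 10.3% called lower. The median log2 fold change, stimulated over untreated, was 0.22 for the 33 genes and 0.0053 over all genes. The changes were small. The 20 genes called higher ranged over log2 fold changes of 0.19 to 0.36 with a median of 0.26, a fold of 1.20. The 13 genes not called ranged over -0.017 to 0.20, and of all 33 only Polr1a lay below 0, while with library totals 29 of the 33 lay above 0. Stimulated libraries were above untreated ones at each of 2, 3 and 6 h for 28 of the 33 genes, against 28.8% of all genes. For 12 of the 33, the lowest of the 3 stimulated values exceeded the highest of the 3 untreated values, against 8.13% of all genes.

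How firm these calls were differed between genes. Leaving out the 3 h pair left 6 of the 33 genes called, leaving out 2 h left 12 and leaving out 6 h left 14. Over all genes 899, 1699 and 1321 were then called, against 2463 in the main fit. The calls of Nhp2, Nop16, Rrp1b, Rrp9, Rrs1 and Wdr74 held each time. When time entered as a smooth curve 1 of the 33 was called, against 1247 of all 12042 genes. With lane added 0 were called, and only 21 of all genes. Set against the difference already present in the 0 min pair 0 were called, and only 43 of all 12139 genes. The median log2 fold change of the 33 was then 0.28. Since few genes of any kind passed with lane added or against the 0 min pair, these counts of 0 cannot set the 33 genes apart. With library totals as the only scaling 14 were called higher and 0 lower, and the split of all called genes then was 669 higher and 2006 lower, against 1228 and 1235 with TMM scaling. Marker sums differed too, but single B, T and dendritic cell markers went both ways. Of 9 tested B cell markers 2 were called higher and 2 lower, over log2 fold changes of -0.64 to 1.58. The 3 tested T cell markers ranged over -0.13 to 0.62 and the 3 tested dendritic cell markers over -0.60 to 1.01. The summed level of the 10 listed B cell markers was 1530 to 2010 CPM in stimulated and 1980 to 2180 CPM in untreated libraries of the middle phase. T cell markers, of which 9 of 10 were in the tables, summed to 64.0 to 81.4 CPM in stimulated and 53.8 to 57.4 CPM in untreated libraries. The 5 plasma cell markers summed to 476 to 591 CPM in stimulated and 677 to 758 CPM in untreated libraries, and the 5 dendritic cell markers to 30.2 to 44.2 CPM in stimulated and 24.7 to 28.4 CPM in untreated ones. Their part in the result was not tested.

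**Figure D2:**
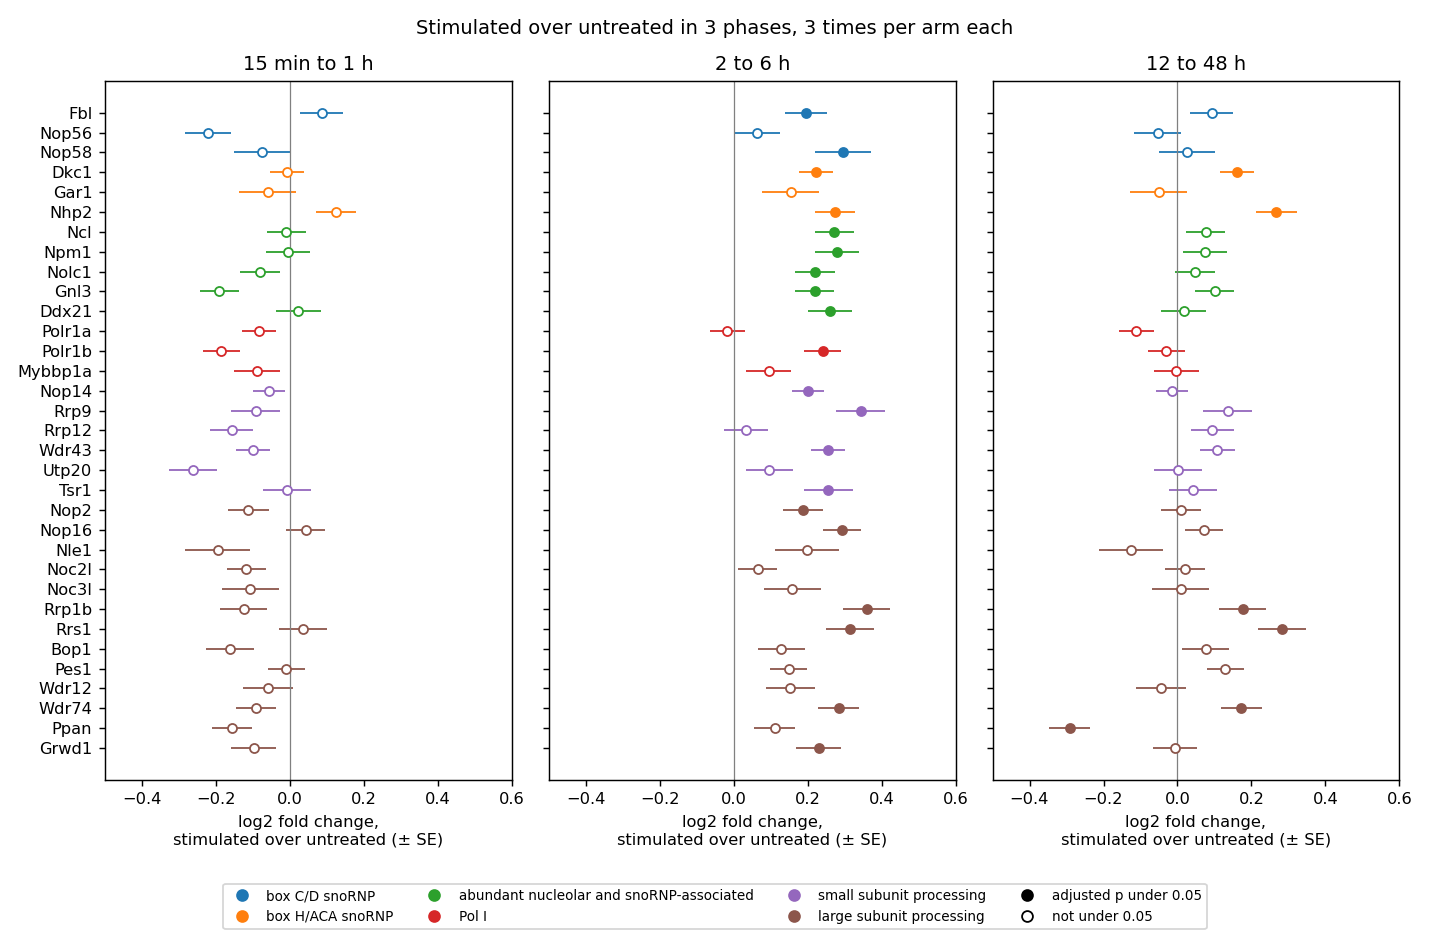
Points are log2 fold changes, stimulated over untreated, of the 33 genes (rows, coloured by role) in the early, middle and late phase (left to right), with bars of ± SE and filled points where the adjusted p was under 0.05. No point is filled in the early phase, 20 are filled in the middle phase, all right of 0, and 6 are filled in the late phase, 5 right of 0 and 1, Ppan, left of it.

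In the first hour none of these genes was called between the arms. By the edgeR test 0 of 33 were called, against 2.24% of all genes, with a smallest adjusted p of 0.066 for Utp20. At an unadjusted p under 0.05 stood 10 of the 33, against 2014 of all 12042 genes. DESeq2 called 3 of the 33, all lower, against 112 of all genes higher and 314 lower. The median log2 fold change was -0.089, and 18 of the 33 were lower in the stimulated library at each of 15 min, 30 min and 1 h, against 24.7% of all genes. A similar offset was present before any time had passed: at 0 min 29 of the 33 were lower in the stimulated library, with a median log2 ratio of -0.083, on the scale of CPM plus 0.5, against -0.0022 for all genes. The stimulated library was above the untreated one for 2 of the 33 genes at 15 min, 8 at 30 min, 13 at 1 h, 30 at 2 h, 30 at 3 h, 33 at 6 h, 30 at 12 h, 18 at 24 h and 19 at 48 h. The median log2 ratio at those times was -0.14, -0.063, -0.020, 0.20, 0.22, 0.22, 0.16, 0.014 and 0.030.

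**Figure D3:**
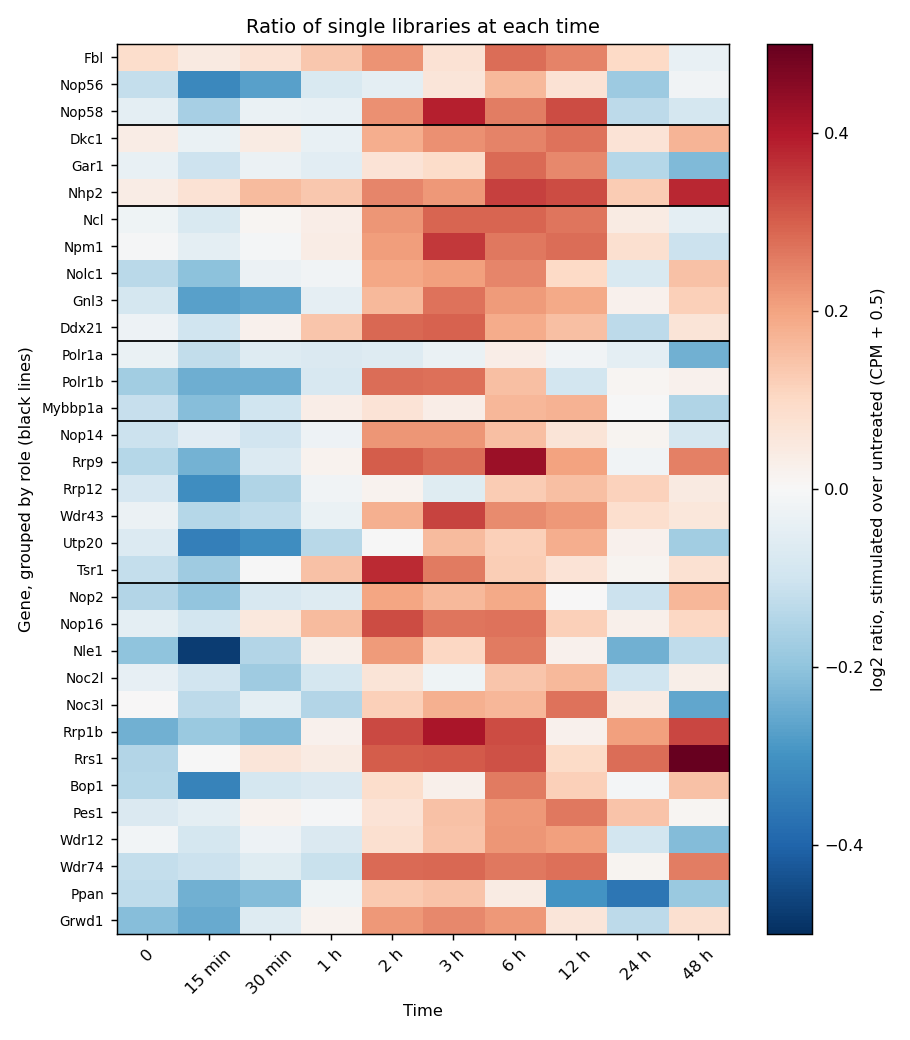
Each cell gives the log2 ratio of the stimulated to the untreated library for 1 gene (rows, grouped by role between black lines) at 1 time (columns), computed on CPM plus 0.5, red where stimulated is higher and blue where it is lower. The columns from 2 h to 12 h are mostly red, with 33 of 33 genes above 0 at 6 h, while 29 of 33 are below 0 at 0 min.

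The promoters of these genes were searched for the E-box CACGTG, the hexamer bound by basic helix-loop-helix factors such as Myc with Max. It reads the same on both strands. RefSeq windows from 250 bases before to 50 bases after the start site (GRCm38.p6) were at hand for 28 of the 33 genes, and those of Rrs1, Npm1, Rrp12, Bop1 and Fbl were not used here. The hexamer was found for 8 of the 28 genes (28.6%), against 11.9% of the 8773 tested genes with a window and 10.3% of the 58 cytosolic ribosomal protein genes with one. The variant CACGCG, searched on both strands (CGCGTG on the other) and able to share bases with a neighbouring match, was found for 28.6% of the 28 genes and 19.9% of the tested genes. Of the 8 genes with the E-box 4 were called higher in the middle phase, and of the 20 without it 13 were. The 8 sites are shown with their flanks because this hexamer was the commoner of the searched motifs relative to the tested genes. Capitals mark CACGTG, and each run goes 5′ to 3′ on the strand of its gene.
Grwd1 (chr7:45830740-45830769, minus strand): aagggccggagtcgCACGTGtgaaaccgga
Mybbp1a (chr11:72441347-72441376, plus strand): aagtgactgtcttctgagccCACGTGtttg
Nle1 (chr11:82908355-82908384, minus strand): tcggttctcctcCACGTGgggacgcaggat
Nop2 (chr6:125131811-125131840, plus strand): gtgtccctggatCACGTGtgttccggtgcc
Pes1 (chr11:3963965-3963994, plus strand): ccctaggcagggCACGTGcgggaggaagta
Tsr1 (chr11:74898092-74898121, plus strand): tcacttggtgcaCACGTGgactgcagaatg
Utp20 (chr10:88826765-88826794, minus strand): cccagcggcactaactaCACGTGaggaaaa
Wdr43 (chr17:71616220-71616249, plus strand): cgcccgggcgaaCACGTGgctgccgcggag
In these windows the E-box begins 60 bases before the start site in Nop2. In Pes1, Wdr43, Nle1, Tsr1, Grwd1, Utp20 and Mybbp1a it begins after the start site, at offsets of 3, 18, 24, 25, 35, 38 and 41 bases. A match is a run of letters and no evidence of binding.

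Of 3 genes for proteins of the box C/D snoRNPs, which carry out 2′-O-methylation of ribosomal RNA, 2 had higher messenger RNA in stimulated cells of the middle phase. The share of all genes called higher there was 10.2%. Nop58, for a core protein of these particles, had 358, 377, 409.7, 458, 579, 638, 584, 638, 526 and 386 CPM at the 10 times in the stimulated arm. The untreated arm had 370.1, 423, 419, 469, 494, 488, 488, 509, 575 and 410.1 CPM. Stimulated Nop58 was above untreated at 2, 3, 6 and 12 h and below it at the other times, and its log2 fold change in the middle phase was 0.30 ± 0.076 (SE; adjusted p = 0.020). That call was lost with any 1 of the 3 times left out. Fbl, for the methyltransferase fibrillarin, had 129, 137, 135, 157, 195, 199.6, 225, 246, 258 and 161 CPM over the same times in the stimulated arm. Untreated cells had 121, 133, 128, 143, 167, 190.1, 186, 207, 241 and 165 CPM. Fbl was above the untreated value from 0 min to 24 h, and its middle phase change was 0.20 ± 0.058 (SE; adjusted p = 0.034), again lost with any of the 3 times left out and with library totals. Nop56, the other core protein, was not called at 0.062 ± 0.063, with 484, 598 and 573 CPM in the stimulated arm, against 500.4, 573 and 512 CPM in the untreated arm; its values overlapped.

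Of the box H/ACA snoRNPs, which turn uridine into pseudouridine, 2 of 3 genes were higher in stimulated cells in the middle phase, and the same 2 in the late phase. The share of all genes called higher was 10.2% in the middle and 17.8% in the late phase. Nhp2 (chr11:51619735-51623714, plus strand, GENCODE vM21 on GRCm38), for a core protein, had 122, 135, 134, 148, 179.6, 204, 254, 279, 282 and 217 CPM in the stimulated arm. In untreated cells it had 119, 128, 119.8, 135, 151, 176, 200.4, 222, 258 and 167 CPM. The stimulated library was above the untreated one at all 10 times, 0 min included. The log2 fold change was 0.12 ± 0.055 early, which was not called, 0.27 ± 0.054 (SE; adjusted p = 0.0063) in the middle phase and 0.27 ± 0.054 (SE; adjusted p = 0.0029) in the late phase. Dkc1, on chromosome X, for the pseudouridine synthase dyskerin, had 306, 317, 319, 324, 395, 440.0, 495, 530.0, 519 and 372 CPM in the stimulated and 298, 324, 309.7, 332, 348, 376, 416, 439, 494 and 331 CPM in the untreated arm. Its changes were 0.22 ± 0.046 (SE; adjusted p = 0.0072) in the middle and 0.16 ± 0.046 (SE; adjusted p = 0.018) in the late phase. The middle phase call was lost without 3 h and the late one without 12 h. Gar1, the third protein, was not called at 0.15 ± 0.077 in the middle phase.

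All 5 genes for abundant nucleolar and snoRNP-associated proteins were higher in stimulated cells in the middle phase, and 0 of 5 in the late phase. The shares of all genes called higher in these phases were 10.2% and 17.8%. Npm1 had 4112, 4355, 4244, 4533, 5289, 5878, 6198, 6894, 6909 and 4990 CPM in the stimulated arm, and 4125, 4509, 4272, 4420, 4570, 4602, 5165, 5683, 6529 and 5378 CPM in the untreated arm. From 2 h to 24 h every stimulated value was above its untreated partner, while at 48 h it was below. Its middle phase log2 fold change was 0.28 ± 0.059 (SE; adjusted p = 0.0085). Ncl, given here after its values were seen, had 5631, 6620 and 7116 CPM in the stimulated arm, against 4833, 5414 and 5813 CPM in the untreated arm, a change of 0.27 ± 0.053 (SE; adjusted p = 0.0055). Both calls were lost without 3 h. Gnl3, for the nucleolar GTP-binding protein nucleostemin, had 484, 446, 506, 550.2, 680.2, 704, 698, 724, 650.4 and 515 CPM in the stimulated and 513, 539, 606, 568, 608, 584, 602, 634, 641 and 474 CPM in the untreated arm. In untreated cells its highest value was 1.249 times the 0 min value, and the stimulated values of 2, 3 and 6 h all lay above the untreated values of those times. Its changes were -0.19 ± 0.053 early, which was not called, and 0.22 ± 0.053 (SE; adjusted p = 0.015) in the middle phase, a call lost without 3 h or 6 h and with library totals. Nolc1, for a snoRNP chaperone, and the helicase gene Ddx21 were called at 0.22 ± 0.054 and 0.26 ± 0.060.

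The 3 genes grouped under RNA polymerase I, 2 subunits and an associated protein, gave a mixed picture. In the middle phase 1 of the 3 was called, higher, against 10.2% of all genes called higher. Polr1b, for the second largest subunit, had 154, 156, 175, 212, 293, 256, 199.8, 205, 211 and 156 CPM in the stimulated arm, and 174, 185, 207, 225, 241, 211, 179.8, 219, 209.8 and 153 CPM in the untreated arm. It was below the untreated value up to 1 h, above it at 2, 3 and 6 h, and close to it at 24 and 48 h. The middle phase change was 0.24 ± 0.050 (SE; adjusted p = 0.0080), lost without 3 h. Polr1a, for the largest subunit, had 208, 207, 219.6, 241, 322, 348, 346, 343, 347 and 252 CPM in the stimulated and 213, 226, 229.5, 253, 336, 357, 338, 348, 359 and 297 CPM in the untreated arm. Its values followed each other closely in the arms, and the middle phase fold change was -0.017 ± 0.047 (SE; adjusted p = 0.83). Mybbp1a, for a nucleolar protein tied to this polymerase and to precursor processing, had 674, 679, 769, 913, 1163, 1302, 1412, 1356, 1306 and 853 CPM in the stimulated arm. Untreated cells had 731, 786, 824, 891, 1109, 1272, 1257, 1202, 1308 and 946 CPM, and the middle phase change of 0.094 ± 0.061 (SE; adjusted p = 0.31) was not called.

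Among 6 genes for small subunit processing 4 were higher in stimulated cells in the middle phase and 0 in the late phase. The shares of all genes called higher were 10.2% and 17.8%. Rrp9 (chr9:106475963-106485424, plus strand), for a protein of the U3 snoRNP, had 56.7, 56.3, 64.3, 79.4, 116, 138, 161, 157, 142 and 96.98 CPM in the stimulated arm, and 62.7, 66.3, 67.4, 78.4, 94.0, 114, 119.7, 136, 143 and 81.5 CPM in the untreated arm. The largest gap was at 6 h, with 161 CPM stimulated and 119.7 CPM untreated. Its middle phase change was 0.34 ± 0.065 (SE; adjusted p = 0.0051) and held with each time left out. Wdr43, for a component of the small subunit processome that acts with Pol I transcription, had 352, 368, 392.3, 432, 565, 595, 493, 569.7, 616 and 442 CPM in the stimulated and 359, 407, 429, 442, 499, 471, 418, 491, 582 and 426 CPM in the untreated arm. Its change was 0.26 ± 0.047 (SE; adjusted p = 0.0042), lost without 3 h. Nop14 and Tsr1, for a processome component and a late assembly factor, were called at 0.20 ± 0.043 and 0.26 ± 0.065. Tsr1 shares 32.3% of its exonic length with Srr on the opposite strand and the strand setting of the counting is unknown, so its value is uncertain. Utp20, for a large processome scaffold, was not called, with 288, 361 and 379.9 CPM in the stimulated arm, against 288, 324 and 349.7 CPM in the untreated arm. Nor was Rrp12, for a factor of subunit export, at 0.034 ± 0.059.

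Of 13 genes for large subunit processing 6 were higher in the middle phase, against 10.2% of all genes: Nop2, Nop16, Rrp1b, Rrs1, Wdr74 and Grwd1. Rrp1b (chr17:32036100-32062865, plus strand), for a nucleolar protein related to yeast Rrp1, had 209, 222, 248, 296, 391.8, 398, 316, 338, 358 and 281 CPM in the stimulated arm, and 246, 253, 288, 292, 312, 299.9, 252, 333, 310.5 and 223 CPM in the untreated arm. Every stimulated value of the middle phase was above every untreated one. The change was 0.36 ± 0.063 (SE; adjusted p = 0.0035) in the middle phase, the largest of the 33 genes, and 0.18 ± 0.063 (SE; adjusted p = 0.049) in the late phase, where the call was lost without 24 h or 48 h and with library totals. Rrs1, whose yeast counterpart brings the 5S particle into the large subunit, and Wdr74, another large subunit factor, changed by 0.31 ± 0.065 (SE; adjusted p = 0.0073) and 0.28 ± 0.055 (SE; adjusted p = 0.0055). Noc2l, for a nucleolar complex protein, had 275.3, 269, 294, 328, 399.6, 385, 384, 379.8, 366 and 354 CPM in the stimulated and 283, 288, 333, 348, 382, 390.4, 349, 339.7, 392.3 and 347 CPM in the untreated arm. It was not called at 0.065 ± 0.053 (SE; adjusted p = 0.42), and it shares 20.9% of its exonic length with Samd11 on the opposite strand. Nop16, of early large subunit particles in yeast, and Nop2, for a ribosomal RNA methyltransferase, were called at 0.29 ± 0.052 and 0.19 ± 0.055. Grwd1, whose yeast counterpart is a chaperone of a ribosomal protein, was called at 0.23 ± 0.060.

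Pes1, Bop1 and Wdr12 form the PeBoW complex of large subunit maturation, and none of the 3 was called between the arms in any phase. In the middle phase their log2 fold changes were 0.15 ± 0.050, 0.13 ± 0.064 and 0.15 ± 0.067. Their messenger RNAs were highest late, as were those of many of the 33 genes. The maximum fell at 12 h or later for 18 of the 33 in the stimulated and 26 in the untreated arm. No rise from the middle to the late phase was called for any of the 33 genes in either arm. Bop1 had 74.4, 77.3, 80.9, 99.5, 142, 159, 193, 231, 260.5 and 158 CPM in the stimulated arm, and 82.3, 97.5, 86.04, 105, 134, 156, 161, 213, 262 and 143 CPM in the untreated arm, with its maximum at 24 h in both. Pes1 was highest at 24 h in both arms, and Wdr12 at 12 h in the stimulated and 24 h in the untreated arm. By contrast Ppan, a large subunit factor related to yeast Ssf1, peaked at 2 h. It had 188, 174, 212, 269, 313, 289, 207, 185, 176 and 152 CPM in the stimulated arm, and 205, 206, 246, 272, 286, 261, 201, 228, 226 and 172 CPM in the untreated arm. These genes were singled out after their values were seen, apart from Ppan.

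**Figure D4:**
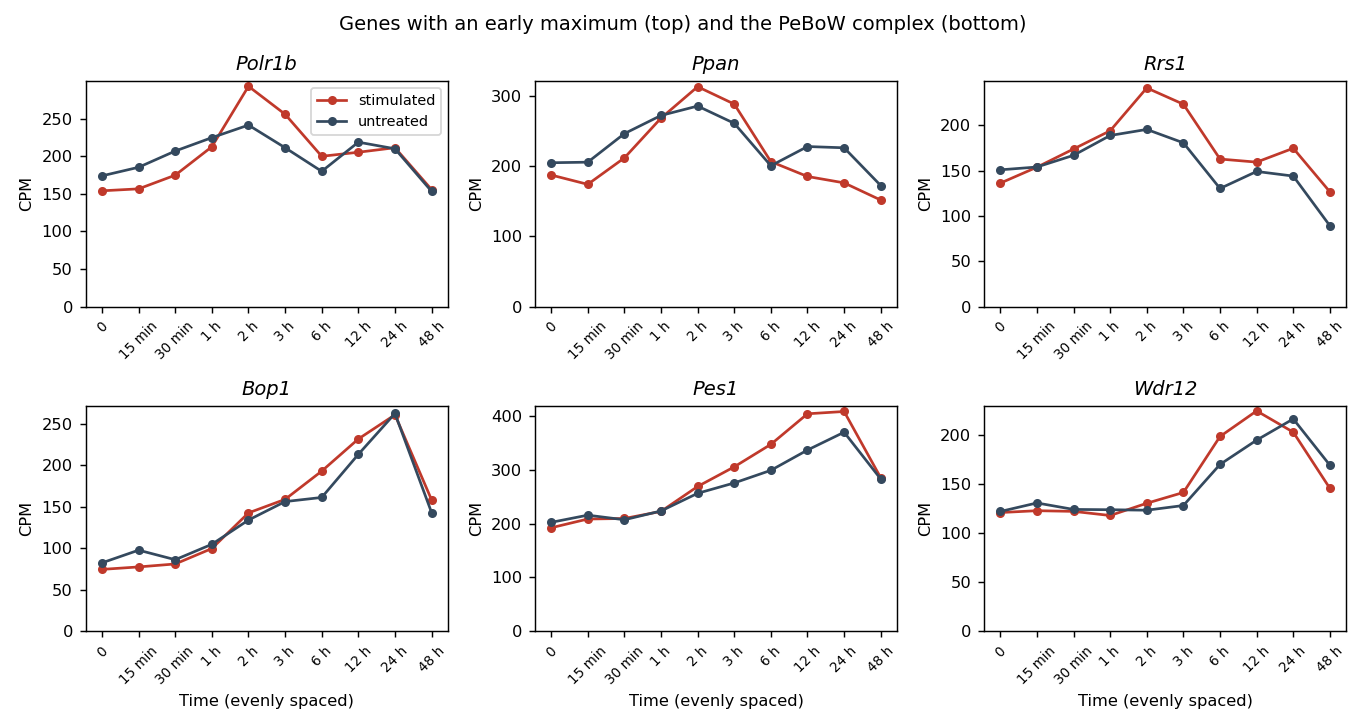
CPM (y axis, from 0) against time, evenly spaced (x axis), for 3 genes highest at 2 h in both arms (top) and the 3 genes of the PeBoW complex (bottom), with 1 library per point, stimulated in red and untreated in dark blue. Ppan is below the untreated arm at 12, 24 and 48 h, and Bop1 reaches 260.5 CPM stimulated and 262 CPM untreated at 24 h.

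Within the stimulated arm the step from the early to the middle phase was broad: 27 of 33 genes were higher in the middle phase and 0 lower, against 22.1% and 19.3% of all 12139 genes. The median log2 fold change was 0.53, against -0.0016 over all genes. Utp20 rose most, with 288, 361 and 379.9 CPM at 2, 3 and 6 h, against 119, 129 and 179 CPM at 15 min, 30 min and 1 h, a change of 1.27 ± 0.24 (SE; adjusted p = 0.0012). Rrp9 rose by 1.06 ± 0.21 (SE; adjusted p = 0.0017) and Bop1 by 0.94 ± 0.21 (SE; adjusted p = 0.0028) on the log2 scale. Of the 6 not called, Tsr1, Rrs1 and Ppan had log2 fold changes of 0.21 ± 0.18, 0.27 ± 0.20 and 0.30 ± 0.19. The middle phase values lay entirely above the early ones for 29 of 33 genes, against 27.9% of all genes. Across single libraries left out in turn 21 to 28 genes were called. Lane as a term gave 29, against 4866 of all 12139 genes. Library totals gave 25 and shifted the median of all genes to -0.14, from which the members' median of 0.40 should be read. Marker sums moved over the same step: B cell markers were 1530 to 2010 CPM in the middle and 2400 to 2570 CPM in the early phase, plasma cell markers 476 to 591 CPM in the middle and 698 to 798 CPM in the early phase, and macrophage and monocyte markers 38.0 to 53.9 CPM in the middle and 59.7 to 63.4 CPM in the early phase. T cell markers were 64.0 to 81.4 CPM in the middle and 55.4 to 61.8 CPM in the early phase. Their part in the result was not tested.

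In the untreated arm the same step was called for 7 of 33 genes, all higher, against 13.6% of all genes higher and 11.9% lower. They were Nhp2, Ncl, Polr1a, Mybbp1a, Rrp9, Bop1 and Utp20. Utp20 again had the largest change, with 288, 324 and 349.7 CPM in the middle phase, against 150.5, 160.2 and 197 CPM in the early phase, or 0.92 ± 0.24 (SE; adjusted p = 0.013). Polr1a, at 0.54 ± 0.11 (SE; adjusted p = 0.0050), was the only one of the 7 whose call held with each untreated library of these 2 phases left out in turn. The count was 1 without 15 min, 1 without 30 min, 4 without 1 h and 9 without 2 h. It was 2 without 3 h, 2 without 6 h and 14 with lane as a term. Over all genes the fits with 1 library left out called 1472, 1142, 2314, 3127, 1142 and 2051 in the same order, against 3089 in the main fit. Still, the median log2 fold change was 0.24, against -4.8e-05 over all genes, and for 21 of 33 genes the middle values lay entirely above the early ones, against 26.7% of all genes. Summed B cell markers were 1980 to 2180 CPM in the middle and 2440 to 2590 CPM in the early phase of this arm, and macrophage and monocyte markers were 39.7 to 50.8 CPM in the middle and 60.8 to 66.7 CPM in the early phase, and their part was not tested.

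Whether the step differed between the arms was tested directly. It was larger in stimulated cells for 12 of 33 genes and smaller for 0, against 3.58% of all genes larger and 2.81% smaller. The difference was above 0 for all 33 genes, with a median of 0.28 on the log2 scale, against 0.0034 over all genes. Rrp1b, Rrp9, Polr1b and Gnl3 had the largest called differences, at 0.48 ± 0.090 (SE; adjusted p = 0.013), 0.44 ± 0.093 (SE; adjusted p = 0.024), 0.43 ± 0.071 (SE; adjusted p = 0.0084) and 0.41 ± 0.075 (SE; adjusted p = 0.013). This count fell with any time left out, as did the count over all genes. It was 0 without 15 min, 0 without 30 min and 5 without 1 h. Without 2, 3 or 6 h it was 7, 1 and 5. Over all genes the calls were 142, 136, 339, 695, 165 and 442 in the same order, against 769 in the main fit. DESeq2 called 20 of the 33 and library totals 6. The difference was above 0 for all 33 genes in each of these fits, and with RLE factors too.

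In the late phase the calls went in both directions. Between stimulated and untreated cells 5 of 33 were called higher and 1 lower, against 17.8% of all genes higher and 18.3% lower, with a median log2 fold change of 0.042 and -0.0037 over all genes. The 5 were Rrs1, Nhp2, Rrp1b, Wdr74 and Dkc1. Rrs1 had 159, 175 and 127 CPM at 12, 24 and 48 h in the stimulated arm, against 149, 144 and 89.2 CPM in the untreated arm, a change of 0.28 ± 0.065 (SE; adjusted p = 0.0059). It overlapped between the arms but was higher at each time. Ppan had 185, 176 and 152 CPM in the stimulated and 228, 226 and 172 CPM in the untreated arm, lower at each time, a change of -0.29 ± 0.055 (SE; adjusted p = 0.0019). Calls of Nhp2, Rrs1 and Ppan held with each late time left out. Without 12 h the split was 3 higher and 4 lower. Single B cell markers went both ways here, with 1 of 9 tested called higher and 4 lower, over log2 fold changes of -2.51 to 4.63. Summed B cell markers were 1380 to 1760 CPM in stimulated and 1970 to 2190 CPM in untreated libraries here, while macrophage and monocyte markers were 43.8 to 99.0 CPM in stimulated and 24.2 to 39.7 CPM in untreated ones. Dendritic cell markers were 32.6 to 66.5 CPM in stimulated and 17.97 to 22.3 CPM in untreated libraries of this phase. Their part in the result was not tested.

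The treatment effect was lower in the late than in the middle phase for 2 genes, Ppan at -0.40 ± 0.078 (SE; adjusted p = 0.014) and Polr1b at -0.27 ± 0.071 (SE; adjusted p = 0.045), and higher for 0, against 3.19% of all genes lower and 3.55% higher. Of the 33 genes 32 had a difference below 0, with a median of -0.17 against -0.012 over all genes. This count was 0 without 2 h, 0 without 3 h, 8 without 12 h and 0 without 24 h. Over all genes the calls of either direction then were 259, 194, 1665 and 272, against 812 in the main fit. Within the stimulated arm Ppan alone was lower in the late than in the middle phase, with 185, 176 and 152 CPM at 12, 24 and 48 h, against 313, 289 and 207 CPM at 2, 3 and 6 h, a change of -0.66 ± 0.19 (SE; adjusted p = 0.023). That is 1 of 33 genes lower and 0 higher, against 10.1% and 11.5% of all genes. The call was lost without 2, 3, 24 or 48 h; without 6 h 3 genes were called lower and 1 higher, and without 48 h 2 were called higher. Within the untreated arm 0 of 33 were called by edgeR, against 12.0% of all genes. At an unadjusted p under 0.05 stood 4 of the 33, against 3674 of all 12139 genes. DESeq2 called 1 of the 33, against 2223 of all genes. Without 6 h the untreated count was 3, and without 48 h it was 2.

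Other genes of the pathway were listed by role. Of 156 such genes 153 were tested, and in the middle phase 68 were higher and 1 lower in stimulated cells, with a median log2 fold change of 0.17, against 10.2% of all genes higher and 10.3% lower. By role the counts were 6 of 12 other Pol I genes, 26 of 45 other small subunit processome genes, 26 of 48 other large subunit factors, 3 of 12 other snoRNP assembly factors, 3 of 14 RNA exosome genes and 4 of 22 Pol III genes higher. The 1 lower gene was Gtf3c1, of a Pol III factor, at -0.16 ± 0.049 (SE; adjusted p = 0.039). Pwp1 and Nmd3, of the large subunit pathway, changed by 0.36 ± 0.043 (SE; adjusted p = 0.00042) and 0.37 ± 0.045 (SE; adjusted p = 0.00045). Mphosph10, of the small subunit processome, and Twistnb, of Pol I, changed by 0.37 ± 0.045 (SE; adjusted p = 0.00046) and 0.42 ± 0.052 (SE; adjusted p = 0.00045). Shq1, an assembly factor of box H/ACA particles, changed by 0.39 ± 0.068 (SE; adjusted p = 0.0033) in the middle and 0.58 ± 0.068 (SE; adjusted p = 9.2e-05) in the late phase. Early, 0 of the 153 were higher and 3 lower, against 72 higher and 198 lower of all 12042 genes. In the late phase 22 of the 153 were higher and 5 lower, where 17.8% of all genes were higher and 18.3% lower. Ubtf, for an activator of Pol I, was 0.16 ± 0.049 (SE; adjusted p = 0.040) in the middle and -0.17 ± 0.049 (SE; adjusted p = 0.020) in the late phase.

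**Figure D5:**
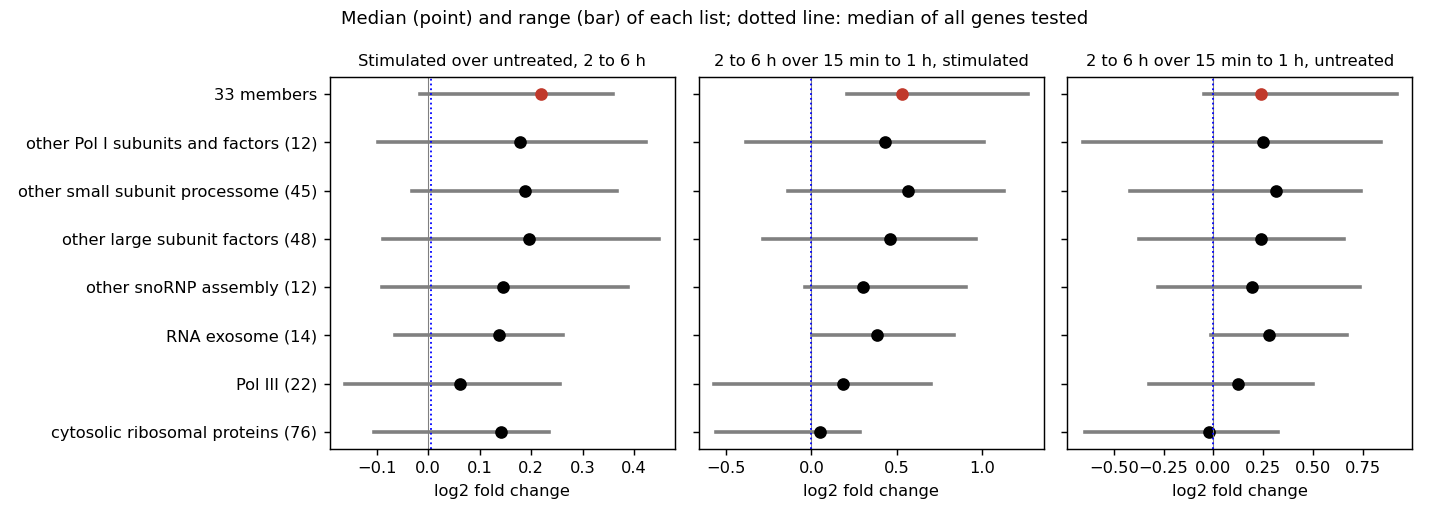
Points are the median and bars the range of log2 fold changes in each list (number of genes tested in brackets), for stimulated over untreated in the middle phase (left), and for the middle over the early phase in the stimulated (middle) and untreated arm (right), with the median of all genes as a dotted line. The 33 genes (red) have medians of 0.22, 0.53 and 0.24, and the cytosolic ribosomal proteins of 0.14, 0.048 and -0.021.

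Genes for the ribosomal proteins themselves were likewise called higher and never lower between the arms in the middle phase. Their counts differed from those of the ribosome biogenesis genes for the step from the early to the middle phase within each arm. Of 79 cytosolic ribosomal protein genes 76 were tested, and 48 were higher in stimulated cells of the middle phase and 0 lower, against 10.2% and 10.3% of all genes, with a median log2 fold change of 0.14. From the early to the middle phase 2 of 76 were higher and 0 lower in the stimulated arm, against 22.1% and 19.3% of all genes, with a median of 0.048. In the untreated arm 2 were higher and 7 lower, against 13.6% and 11.9% of all genes, with a median of -0.021. The difference between these lists was not tested. Many ribosomal protein genes have near-identical processed copies, between which the counting may have split reads.

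Myc, for the transcription factor known for raising ribosome biogenesis genes, was highest at 1 h in stimulated cells. It had 517, 543, 659, 1187, 906, 576, 454, 456, 517 and 735 CPM in the stimulated arm, and 492, 499.9, 456, 574, 618, 597, 409, 571, 458 and 519 CPM in the untreated arm. The stimulated value was above the untreated one at every time but 3 and 12 h. Its log2 fold change was 0.57 ± 0.18 (SE; adjusted p = 0.13) in the early and 0.22 ± 0.18 (SE; adjusted p = 0.41) in the middle phase, called in neither. Of 7 tested genes listed as Myc network regulators 0 were called higher and 1 lower in the middle phase, against 10.2% and 10.3% of all genes. In the late phase 2 of the 7 were higher and 1 lower, against 17.8% and 18.3% of all genes. Mxd4, for a repressor that shares Max with Myc, was lower in the middle phase at -0.58 ± 0.14 (SE; adjusted p = 0.017). Mxd1, of the same family, was higher in the late phase at 0.84 ± 0.15 (SE; adjusted p = 0.0016).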

How the data were processed

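Polyadenylated RNA of 20 libraries was sequenced. The deposited values are raw counts per gene in 1 table per library. The submitters' processing notes name STAR, HTSeq and the builds GRCm38.p3 and mm10, and the sources used here give no versions and no strand setting. The 33 members, their roles, the other lists and the tests were chosen with earlier results of these data known.

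Counts were tested in edgeR 4.0.16 (R 4.3.3): TMM scaling, a minimum of 1 CPM in 3 libraries, quasi-likelihood F-test, Benjamini-Hochberg adjustment over all genes, threshold 0.05. Treatment within phases was fitted on the 18 libraries after 0 min with time as a factor, so that libraries of 1 time formed a pair. Changes within an arm were fitted on all 20 libraries in 8 groups of arm and phase. An SE is the log2 fold change divided by the square root of F. CPM are TMM-scaled, except that markers are scaled by library totals. Ratios at single times used a pseudocount of 0.5 CPM and no test.

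Values in each library were given, within each role, for the members with the highest mean CPM and with the largest absolute log2 fold change in the middle and in the late phase, and, of other lists, for genes with the smallest adjusted p; other genes were named with their values known. As alternatives served RLE factors, library totals, DESeq2 1.42.0, no filter, at least 5 CPM, lane as a term, a spline of time of 3 degrees of freedom with and without lane, the 0 min pair as baseline, each time or library left out, and a pseudocount of 2 CPM. On simulated counts with no trend over time, the middle phase comparison (11754 genes) recovered 91.9% of 2-fold and 71.4% of 1.41-fold changes, with 14 false of 175 calls. The stimulated early to middle step (11921 genes) recovered 69.7% and 24.2%, with 8 false of 100 calls.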

Additional observations from a re-analysis of the deposited data

Results flagged for a closer look

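Whether the treatment effect differed between phases was tested directly, and 14 results passed the threshold of adjusted p under 0.05 by edgeR. The middle phase effect exceeded the early one for 12 genes, by the following log2 differences: Rrp1b 0.48, Rrp9 0.44, Polr1b 0.43, Gnl3 0.41, Wdr74 0.38, Utp20 0.36, Wdr43 0.35, Grwd1 0.33, Nolc1 0.30, Nop2 0.30, Ncl 0.28 and Nop14 0.26. For Utp20 the effect was not called in either phase alone. The late phase effect was below the middle one for 2 genes, with log2 differences of -0.40 for Ppan and -0.27 for Polr1b. Polr1b was thus flagged in both comparisons. Early, 0 of these genes was called alone, and at 0 min the stimulated library already lay below the untreated one for 29 of the 33 genes. None of the 14 calls held with each time left out in turn. Lane, mouse and treatment cannot be told apart in these comparisons.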

How the results depend on the processing

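No single gene changed sign under any alternative where it had been called. Counts of members called were less stable. The middle phase count of 20 became 1 with a spline of time, 0 with lane added to it, 0 relative to the 0 min pair, and 6 to 14 with 1 time left out. Over all genes these fits called 1247, 21, 43 and 899 to 1699, against 2463 in the main fit. The late count of 6 became 1, 0 and 0 under the same changes and 6 to 7 with 1 time left out, and without 12 h its direction turned, with 7 called, 3 higher and 4 lower. Over all genes the late calls were 2331, 185, 847 and 3056 to 4266 in these fits, against 4351 in the main fit. The early count of 0 became 2 with library totals, 3 with DESeq2, 2 without a filter and 1 at 5 CPM, all lower. The 12 middle minus early differences became 6 with library totals, 20 with DESeq2, 0 with a spline, 0 with lane added, and 0 to 7 with 1 time left out. Over all genes the 769 such calls became 261 with a spline, 59 with lane added and 136 to 695 with 1 time left out. The 2 late minus middle differences became 1 with RLE factors, 1 with library totals, 1 without a filter, 1 at 5 CPM, 0 with a spline, 0 with lane added, and 0 to 8 with 1 time left out. Over all genes the 812 such calls became 247 with a spline, 0 with lane added and 194 to 1665 with 1 time left out. Within the stimulated arm the 27 early to middle calls became 29 with lane and stayed at 21 to 28 with 1 library left out. The 1 late to middle call of that arm became 4 with lane and 0 to 4 with 1 library left out, turning to 2 higher without 48 h. Within the untreated arm the 7 early to middle calls became 14 with lane and 1 to 9 with 1 library left out, and the late to middle count of 0 became 1 with DESeq2, 1 at 5 CPM and 0 to 3 with 1 library left out. Library totals moved the all-gene split from even towards lower, to 1877 higher and 3131 lower in the stimulated early to middle step, 1744 and 2570 in the late phase, 238 and 525 for middle minus early, 1275 and 1749 in the untreated step, and 566 and 896 in the untreated middle to late step, but for late minus middle it moved towards higher, to 499 and 322. The causes were not tested. Lane as a plain term could not be fitted beside the time factor. A pseudocount of 2 CPM moved no median ratio of the 3 phases by more than the spread between times. No label numbers the replicates, and the treatment fit pairs libraries of the same time. With 1 mouse per arm and 1 library per time, small changes could go uncalled, and a gene not called was not shown to be unchanged.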
